A study of Mus musculus with 16 samples.

Results

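Colon gene expression was compared between germ-free Swiss Webster mice that had been re-conventionalised (CONV), that is, given a full microbiota, and germ-free Swiss Webster mice that carried only a Bifidobacterium whose TadA gene was mutated (TadA mutant). A header of the deposited gene-level table names that group UCC2003 TadA, after the strain UCC2003. The comparison was chosen by the treatment label and holds 8 of the 16 arrays of the series, 4 per group. The other 8 arrays are 4 of mice given Bifidobacterium UCC2003 alone and 4 of mice left germ-free (GF). They enter here through the shared estimate of spread, as levels beside the results, and through the choice of genes in the gene-level table. Of the 5 CONV animals that the design text counts, arrays of 4 were analysed. All groups share the Swiss Webster background, an outbred stock, and all derive from germ-free animals, so the CONV colon met its microbiota after a germ-free start. The TadA mutant mice carried living bacteria of 1 kind and are not a germ-free control. The sample titles call the replicates biological. The labels give treatment and replicate but no age, sex, litter or cage, so a difference between the groups in any of these cannot be told apart from the difference in bacteria.

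The colonic epithelium is a single layer of absorptive colonocytes and mucus-secreting goblet cells, renewed from crypts, that faces the luminal bacteria. It reads bacterial products through Toll-like receptors and their co-receptors, releases antimicrobial proteins and reactive oxygen, and takes up products of bacterial metabolism such as secondary bile acids and organic acids. TadA is a gene of the tight adherence pilus, a hair-like structure with which bifidobacteria contact their host. The comparison asks what a full community adds in the colon to colonisation by 1 bacterium without that pilus gene.

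Total RNA of colon was hybridised to Affymetrix Mouse Exon ST arrays. The deposited values are log2 intensities of 23332 transcript clusters, the probe groups that such an array reads as 1 transcript, and 1973 of them carry exactly 1 gene symbol in the deposited tables. A second deposited table gives log2 values for 1793 genes. These were selected by an analysis of variance over UCC2003, TadA mutant and GF that left CONV out, so that the choice used the TadA mutant values. Its columns name the group but not the replicate. Values of different genes come from different probes, so no gene's level is set against another's, and the 4 arrays per group limit the precision of every value. Pairwise correlations among the 8 arrays ran from 0.945 to 0.978 and array medians over all 16 from 5.91 to 6.03 log2 units, with 0 duplicate pairs.

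The tissue label was checked against marker genes. Krt20, a keratin of mature colonocytes, stood between 11.02 and 11.71 log2 units in all 8 arrays, and the mean of Krt20 and Phgr1, the 2 colon epithelium markers with a named cluster of 16 listed, ran from 11.07 to 11.24 in CONV and from 10.81 to 10.96 in TadA mutant arrays. Apoa4, a small intestinal marker, lay between 5.23 and 5.90. Pancreatic transcripts were present in part of both groups: the mean of Cpa1 and Cel, a carboxypeptidase and a lipase of the pancreas, was 5.02, 10.42, 5.35 and 12.54 log2 units in the 4 CONV arrays, against 4.70, 12.89, 5.06 and 6.99 in the 4 TadA mutant arrays. It was above 10 in CONV replicates 2 and 4 and in TadA mutant replicate 2, and the group means differed by 0.92 log2 units (two-sided exact permutation p = 0.83 over 70 splits). Smooth muscle transcripts did differ. The mean of the 4 named smooth muscle clusters was 7.58, 7.55, 7.81 and 7.82 log2 units in CONV arrays, against 8.22, 7.84, 8.42 and 8.38 in TadA mutant arrays, a difference of -0.53 with no overlap between the groups (two-sided p = 0.0286 by exact permutation, the lowest value possible with 70 splits). In colon tissue, fewer cells of a type and less RNA per cell cannot be told apart. The part of muscle content in the results below was not tested beyond the fits with its level as a covariate.

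**Figure D1:**
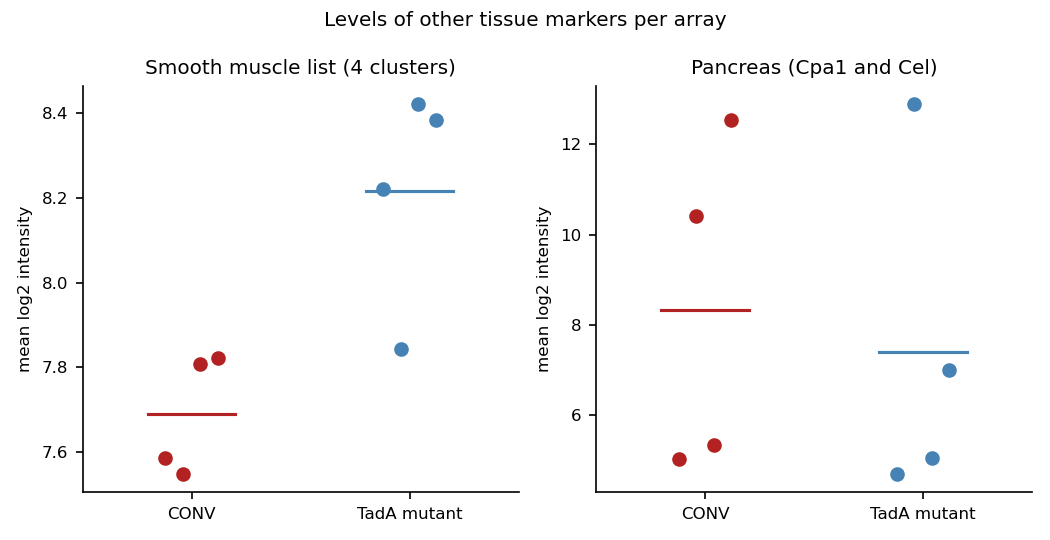
Mean log2 intensity per array of the 4 smooth muscle clusters (left) and of Cpa1 and Cel (right), in CONV (red) and TadA mutant (blue) arrays, with a line at each group mean. The 4 CONV arrays lie between 7.55 and 7.82 in smooth muscle level, below all 4 TadA mutant arrays, while pancreatic level is high in 2 CONV arrays and 1 TadA mutant array.

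Between colons with a full microbiota and TadA mutant colons, a small share of all clusters passed the adjusted threshold, which is not the share that differs. By limma's moderated test, fitted to all 16 arrays with Benjamini-Hochberg adjustment over all clusters, 327 of 23332 clusters had an adjusted p under 0.05 (1.4%), 197 of them higher in CONV (0.844%) and 130 lower (0.557%). These clusters are called changed below, and 15.1% of all clusters had an unadjusted p under 0.05. The median size among called clusters was 0.79 log2 units upward and -0.67 downward, and 73 rose and 33 fell by at least 1 log2 unit. Of the clusters with exactly 1 symbol, 49 of 1973 were called (2.48%), 32 higher (1.62%) and 17 lower (0.862%). Their CONV and TadA mutant arrays did not overlap in 48 of the 49, against 9.63% of all clusters (4.54% higher, 5.09% lower), and the exception was Casp14. The gene-level table had 23 of 1793 called genes after adjustment over 35860 tests, its 1793 genes divided by the 0.05 they had been selected at (1.28%), 18 higher (1%) and 5 lower (0.279%). Of the whole table, 29.1% had an unadjusted p under 0.05, which is the background for every gene-level count at that limit below. All 23 were without overlap, against 15.4% of the table (8.81% higher, 6.64% lower). Adjusted over that table alone, 202 passed (11.3%), 117 higher (6.53%) and 85 lower (4.74%). For the list counts below, the background is the share called, 2.48% of clusters with 1 symbol and 1.28% of the gene-level table. For counts of directions, it is the share at positive differences, called or not, which was 56.3% and 51.9%.

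The count of 327 depends on the arrays and terms in the fit. It was 83 with the 8 CONV and TadA mutant arrays alone, 34 with smooth muscle level as covariate (30 higher and 4 lower), 29 without the arrays in which Cpa1 exceeded 9 log2 units, which left 2 CONV and 3 TadA mutant arrays, and 163, 169, 180 and 186 without TadA mutant replicate 1, 3 or 4 or CONV replicate 2. None of the 327 (0) changed direction in any of the 26 alternative fits.

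The largest gene-level rise was in the colonocyte genes of the calcium-activated chloride channel regulator family, which encode secreted or surface proteins of the intestinal epithelium. Clca4b was at 10.87, 11.36, 10.77 and 9.95 log2 units in CONV colons, against 6.21, 6.02, 6.22 and 6.37 in TadA mutant colons. The lowest CONV column was 3.58 log2 units above the highest TadA mutant column, and the difference was 4.54 ± 0.21 log2 units (SE, 23.2-fold, adjusted p = 1.56e-08). Its relative Clca4a was at 10.46, 10.68, 10.49 and 9.89 log2 units in CONV colons, against 7.85, 7.11, 7.67 and 7.97 in TadA mutant colons. The groups again did not overlap, and it rose by 2.73 ± 0.23 (6.64-fold, adjusted p = 2.18e-05). The 2 genes are close relatives, and whether their probes share sequence was not tested. On the clusters, Sprr1a, which encodes a small proline-rich protein of the cross-linked layer under the membrane of stressed epithelia, rose most among the named ones. It was at 8.87, 10.39, 9.54 and 9.38 log2 units in CONV colons, against 6.53, 7.89, 6.46 and 6.83 in TadA mutant colons (cluster 6906967). The lowest CONV array was 0.99 log2 units above the highest TadA mutant array, replicate 2, and the rise was 2.62 ± 0.33 (6.15-fold, adjusted p = 0.000829). Its neighbour in the barrier list, Sprr3, was at 0.51 ± 0.22 (adjusted p = 0.311).

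Fxyd4 fell most among the named genes of either table. It encodes a small membrane protein that binds and tunes the sodium-potassium pump and is known from the salt-absorbing epithelium of kidney and colon. It was at 7.91, 8.03, 7.02 and 7.66 log2 units in CONV colons, against 11.65, 11.31, 11.35 and 11.18 in TadA mutant colons. The highest CONV column was 3.14 log2 units below the lowest TadA mutant column, and the gene fell by 3.72 ± 0.25 log2 units in CONV (13.1-fold lower, adjusted p = 1.68e-06).

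The stretches upstream of the 2 largest named cluster rises and of the largest gene-level rise and fall are shown because these genes carry the extremes of the comparison. They are the 250 bases before each gene's start in RefSeq on GRCm38.p6, and give the reference mouse sequence and not that of the outbred mice measured. Capitals mark matches on either strand to TGANTCA, the core of AP-1 sites, and to TTCNNNGAA, the core bound by STAT factors. The regions are chr3:92485882-92486131, minus strand for Sprr1a, chr9:65422774-65423023, minus strand for Slc51b, chr3:144932530-144932779, minus strand for Clca4b and chr6:117937336-117937585, minus strand for Fxyd4.
Sprr1a: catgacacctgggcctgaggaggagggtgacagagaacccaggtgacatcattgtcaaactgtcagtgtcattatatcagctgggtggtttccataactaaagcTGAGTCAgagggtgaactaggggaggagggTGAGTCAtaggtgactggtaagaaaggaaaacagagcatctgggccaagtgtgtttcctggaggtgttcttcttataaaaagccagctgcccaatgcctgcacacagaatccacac
Slc51b: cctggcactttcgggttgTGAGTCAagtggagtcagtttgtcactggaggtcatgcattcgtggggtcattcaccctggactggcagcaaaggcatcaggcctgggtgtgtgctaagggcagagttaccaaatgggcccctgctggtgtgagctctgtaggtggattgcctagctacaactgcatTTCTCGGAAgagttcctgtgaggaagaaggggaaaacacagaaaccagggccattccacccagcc
Clca4b: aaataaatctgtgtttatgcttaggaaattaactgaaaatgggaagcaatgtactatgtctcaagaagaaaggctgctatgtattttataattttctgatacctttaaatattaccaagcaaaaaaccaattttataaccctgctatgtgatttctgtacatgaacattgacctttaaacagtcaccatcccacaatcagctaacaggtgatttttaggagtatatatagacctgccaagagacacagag
Fxyd4: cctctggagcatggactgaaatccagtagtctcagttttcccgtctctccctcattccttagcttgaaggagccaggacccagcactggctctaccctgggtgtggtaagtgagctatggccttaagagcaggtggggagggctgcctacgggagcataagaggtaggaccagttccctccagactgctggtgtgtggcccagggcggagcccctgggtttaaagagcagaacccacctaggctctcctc
Sprr1a holds TGAGTCA at 146 and at 116 bases upstream, and Slc51b holds TGAGTCA at 232 and TTCTCGGAA at 65. Among 32851 RefSeq promoters of the same length, 6.75% hold TGANTCA at least once and 0.338% hold 2 or more, and 7.02% hold TTCNNNGAA. Of the 69 called named genes, 52 had a promoter entry that was searched, and 5 of these 52 held TGANTCA (9.62%) and 4 held TTCNNNGAA (7.69%). The Clca4b and Fxyd4 windows hold neither. A match is a run of letters and not a measured site.

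**Figure D2:**
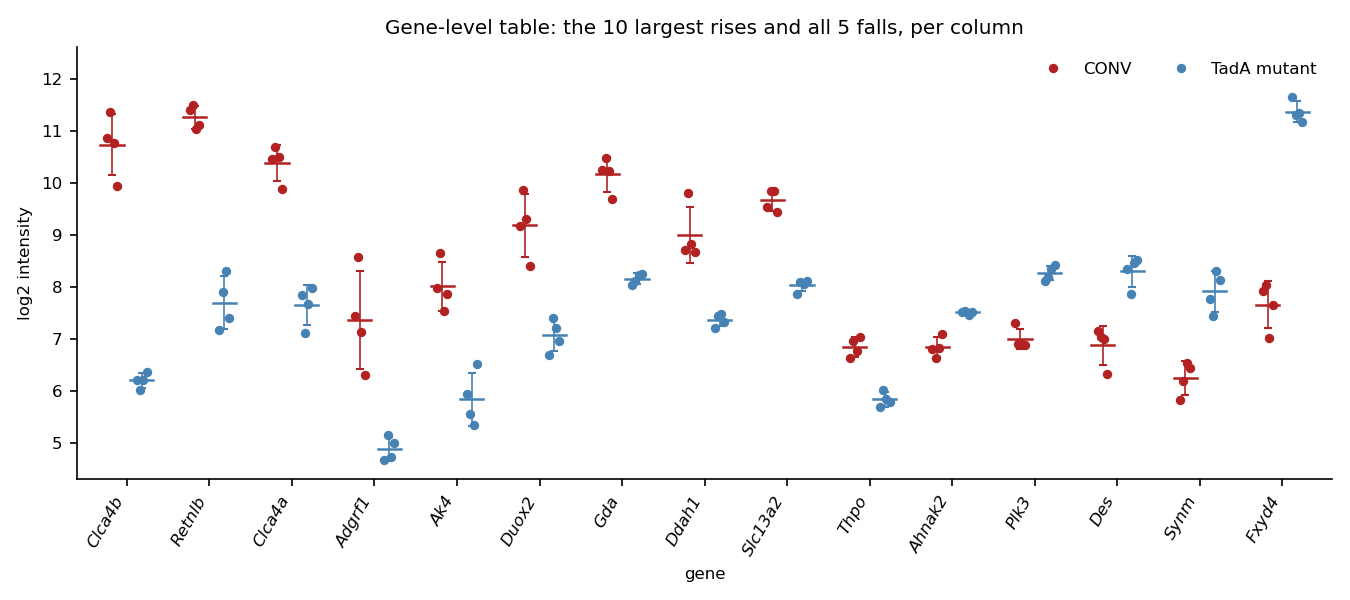
Log2 intensity of the 10 largest called rises and the 5 called falls of the gene-level table, with CONV columns (red, left of each pair) and TadA mutant columns (blue, right), lines at the group mean and bars for the SD over 4 columns. The groups do not overlap for any of the 15 genes, and Clca4b and Fxyd4 lie farthest apart.

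Slc51b, Slc13a2 and Aqp4 rose. Slc51b encodes a subunit of the exporter that passes bile acids from the colonocyte to the blood. It was at 7.63, 8.15, 7.25 and 8.52 log2 units in CONV colons, against 5.83, 5.88, 5.79 and 5.82 in TadA mutant colons (cluster 6996343). The TadA mutant arrays lay within 0.09 log2 units of each other, all below the CONV arrays, and the rise was 2.06 ± 0.22 (4.16-fold, adjusted p = 0.000152). Slc13a2, a sodium-coupled carrier of citrate and succinate, was at 9.75, 10.04, 9.99 and 9.67 log2 units in CONV colons, against 7.98, 8.26, 8.14 and 8.16 in TadA mutant colons. The groups were 1.41 log2 units apart at their nearest values, and it rose by 1.72 ± 0.11 on the clusters (adjusted p = 2.53e-06) and by 1.63 ± 0.12 in the gene-level table (adjusted p = 3.84e-06). Aqp4, a water channel, was at 9.49, 9.53, 9.75 and 9.27 log2 units in CONV colons, against 7.54, 7.16, 7.84 and 7.52 in TadA mutant colons. The rise was 2.00 ± 0.18 (3.99-fold, adjusted p = 3.15e-05), without overlap.

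Best2 fell. This anion channel, known from goblet cells of the mouse colon, was at 7.37, 6.78, 7.14 and 7.07 log2 units in CONV colons, against 8.11, 7.77, 8.41 and 8.17 in TadA mutant colons. It fell by 1.02 ± 0.15 log2 units (adjusted p = 0.00342), with every CONV array below every TadA mutant array. Other called transport and surface genes, named after their values were seen, were the calcium-binding S100g, which rose by 1.17 ± 0.19, the chloride channel gene Clcn2, which rose by 0.57 ± 0.10 in the gene-level table with a call that 7 of 13 alternatives lost, and Stom, a membrane scaffold gene, which rose by 1.41 ± 0.31 with a call that 16 of 26 alternative fits lost. Of the transporter list, 2 of 5 measured clusters were called, both higher (Slc51b and Slc13a2), with a median difference of 0.18, and 1 of 5 gene-level genes (median 0.14). Over all features the median was -0.002 on clusters, 0.04 on clusters with 1 symbol and 0.01 in the gene-level table. Not called were Slc9a3, the apical sodium-proton exchanger, at 1.38 ± 0.35 (adjusted p = 0.489), Slc17a4, an organic anion carrier, at -0.52 ± 0.17 (0.163), and Slc7a9, an amino acid carrier, at -0.34 ± 0.15 (1).

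Of the absorptive colonocyte list, 3 of 8 clusters were called, Aqp4 and Krt20 higher and Best2 lower, the last a member of this list although it is known from goblet cells, with a median of 0.04, against 2.48% of clusters with 1 symbol. Krt20 was at 11.55 ± 0.19 log2 units in CONV colons and 11.06 ± 0.04 in TadA mutant colons (SD, n = 4 each) and rose by 0.49 ± 0.09 (adjusted p = 0.0168). Hsd11b2, which inactivates glucocorticoids in aldosterone-responsive cells, was at -0.25 ± 0.10 (adjusted p = 0.245). In the gene-level table, 2 of 5 members were called, the Clca4 pair, with a median of 1.38. The bile acid and cholesterol list had 2 of 5 called, Slc51b higher and Klb lower, and a median of -0.02. Klb, the co-receptor through which a gut hormone of the FGF family acts, was at 5.91, 5.37, 5.43 and 5.98 log2 units in CONV colons, against 6.23, 6.38, 6.28 and 6.45 in TadA mutant colons and fell by 0.66 ± 0.15 (adjusted p = 0.0368). The 4 TadA mutant arrays stood within 0.22 log2 units of each other, and 15 of 26 alternative fits lost that call.

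**Figure D3:**
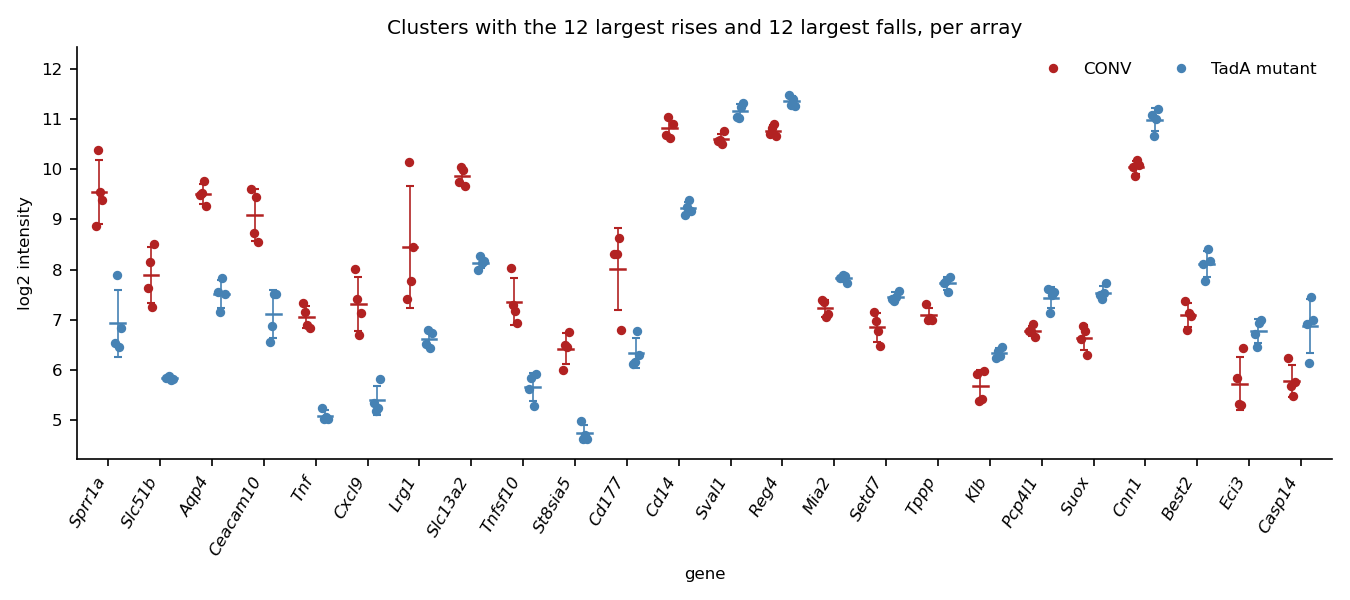
Log2 intensity of the 12 largest rises (left) and 12 largest falls (right) among called clusters with 1 symbol, with CONV arrays (red, left of each pair) and TadA mutant arrays (blue, right), lines at the group mean and bars for the SD over 4 arrays. The rises span 1.59 to 2.62 log2 units and the falls 0.56 to 1.09, and only Casp14 has overlapping groups.

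Antimicrobial and oxidant defence genes were among the large rises. Retnlb encodes a resistin-like protein that goblet cells secrete onto bacteria. It was at 11.41, 11.49, 11.04 and 11.12 log2 units in CONV colons, against 7.17, 7.90, 8.30 and 7.40 in TadA mutant colons. The lowest CONV column was 2.73 log2 units above the highest TadA mutant column, and the rise was 3.57 ± 0.26 (11.9-fold, adjusted p = 3.84e-06). Duox2, an oxidase that releases hydrogen peroxide at the epithelial surface, was at 9.18, 9.86, 9.31 and 8.40 log2 units in CONV colons, against 6.69, 7.41, 7.22 and 6.97 in TadA mutant colons. It rose by 2.12 ± 0.24 (4.34-fold, adjusted p = 0.000450), without overlap. Cyba, a subunit of other NADPH oxidases, rose by 0.77 ± 0.11 on the clusters (adjusted p = 0.00199) and by 0.71 ± 0.11 in the gene-level table (adjusted p = 0.0136), and was named after its values were seen. The NADPH oxidase gene Nox1 was at 8.04, 8.33, 8.10 and 8.03 log2 units in CONV colons, against 6.79, 7.25, 7.38 and 7.51 in TadA mutant colons, without overlap, and its difference of 0.89 ± 0.23 was not called (adjusted p = 0.0743).

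Reg4, a secreted lectin-like protein of secretory crypt cells, went the other way, at 10.69, 10.81, 10.90 and 10.65 log2 units in CONV colons, against 11.48, 11.27, 11.39 and 11.26 in TadA mutant colons. It fell by 0.59 ± 0.08 (adjusted p = 0.00216), with all CONV arrays below all TadA mutant arrays. Of the defence list, 2 of 12 clusters were called, Sprr1a higher and Reg4 lower (median 0.10), and 2 of 4 gene-level genes, Retnlb and Duox2 (median 1.14). Tff3, the trefoil peptide of goblet cells, was at -0.34 ± 0.10 and Zg16, a mucus lectin that binds bacteria, at -0.23 ± 0.08, neither called (adjusted p = 0.108 and 0.206).

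Cd14, the co-receptor that hands bacterial lipopolysaccharide to Toll-like receptor 4, was at 10.68, 11.05, 10.62 and 10.90 log2 units in CONV colons, against 9.08, 9.25, 9.38 and 9.17 in TadA mutant colons. The groups were 1.24 log2 units apart at their nearest values, and it rose by 1.59 ± 0.12 (3.02-fold, adjusted p = 8.41e-06). Sting1, the adaptor for cyclic dinucleotides, which bacteria also make, rose by 1.13 ± 0.16 (adjusted p = 0.00175) and was named after its values were seen. Of the NF-kappaB and Toll-like receptor list, Cd14 was the 1 of 7 clusters called, with a median of 0.22. The receptor genes Tlr2 at 0.47 ± 0.17 and Tlr9 at 0.30 ± 0.10 and the adaptor Ticam1 at 0.22 ± 0.08 were not called (adjusted p = 0.199, 0.191 and 0.209). In the gene-level table, 0 of 3 members were called by limma (2 with unadjusted p under 0.05, median 0.28), with Rel, an NF-kappaB subunit, at 0.90 ± 0.22 (adjusted p = 0.356) and the kinase Ripk2, which relays NOD receptor signals, at 0.28 ± 0.13 (1).

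Tnf, Cxcl9 and Tnfsf10 rose. Tnf, the inflammatory cytokine, was at 7.33, 7.16, 6.90 and 6.84 log2 units in CONV colons, against 5.25, 5.01, 5.06 and 5.02 in TadA mutant colons. The TadA mutant values spanned 0.23 log2 units, 1.59 below the lowest CONV array, and the rise was 1.97 ± 0.15 (3.91-fold, adjusted p = 8.41e-06). Cxcl9, a chemokine that interferon gamma induces and that draws T cells, was at 8.0, 7.42, 6.70 and 7.13 log2 units in CONV colons, against 5.35, 5.18, 5.23 and 5.81 in TadA mutant colons. It rose by 1.92 ± 0.22 (adjusted p = 0.000298), without overlap. Tnfsf10, the death ligand TRAIL, was at 8.03, 7.30, 7.18 and 6.93 log2 units in CONV colons, against 5.61, 5.84, 5.29 and 5.91 in TadA mutant colons. Its rise was 1.70 ± 0.22 (adjusted p = 0.00109), also without overlap. Il4ra, a receptor chain for interleukins 4 and 13, named after its values were seen, rose by 0.80 ± 0.15 (adjusted p = 0.0180). Of the cytokine list 1 of 16 clusters was called, Tnf (median 0.14), with Cxcr3, the receptor for Cxcl9, at 0.64 ± 0.19 (adjusted p = 0.117), and 0 of 9 gene-level genes were called by limma (1 with unadjusted p under 0.05, median 0.15), with the neutrophil chemokine Cxcl1 at 0.74 ± 0.18 (adjusted p = 0.436).

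Of the interferon response list 1 of 7 clusters was called, Cxcl9 (median 0.35), and 0 of 5 gene-level genes by limma (2 with unadjusted p under 0.05). On the clusters, 5 of 7 were at positive differences, while Ifit1 at -0.26 ± 0.54 and Irf7 at -0.05 ± 0.23 were negative, neither called. All 5 gene-level members had positive differences (median 0.71), among them the guanylate-binding protein genes Gbp8 at 0.74 ± 0.17 and Gbp4 at 0.73 ± 0.28 (adjusted p = 0.335 and 1). Antigen presentation genes were likewise all at positive differences, 8 of 8 with a median of 0.52 in a table with a median of 0.01, and 0 of 8 were called by limma, while 6 had an unadjusted p under 0.05. Psmb9, an immunoproteasome subunit, was at 0.74 ± 0.22, H2-Aa, a class II chain, at 0.55 ± 0.17 and Nlrc5, the activator of class I genes, at 0.45 ± 0.13 (adjusted p = 0.807, 0.907 and 0.793). H2-Q1, a class I gene of a multigene family in which probes can be shared, rose by 0.46 ± 0.08 on the clusters (adjusted p = 0.0135) and was at 0.50 ± 0.11 in the gene-level table (adjusted p = 0.237).

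Among immune cell markers, Cd177, a surface protein of neutrophils, was at 8.30, 8.30, 8.62 and 6.80 log2 units in CONV colons, against 6.12, 6.16, 6.77 and 6.29 in TadA mutant colons. It rose by 1.67 ± 0.30 (adjusted p = 0.0124). CONV replicate 4 was 0.03 log2 units above the highest TadA mutant array, and the other 3 CONV arrays were at least 1.54 above it. Lrg1, a secreted glycoprotein made in inflammation and stored in neutrophils, was at 7.40, 10.14, 7.78 and 8.45 log2 units in CONV colons, against 6.52, 6.80, 6.43 and 6.73 in TadA mutant colons. CONV replicate 2 was 1.68 log2 units above the next array, and the rise of 1.83 ± 0.41 (adjusted p = 0.0434) was lost in 18 of 26 alternative fits. Of the macrophage, neutrophil and mast cell list 1 of 8 clusters was called, Cd177 (median 0.31), with the complement gene C1qb at 0.49 ± 0.16 and the Fc receptor gene Fcgr3 at 0.42 ± 0.12 (adjusted p = 0.173 and 0.101). In the gene-level table, 0 of 6 were called by limma (3 with unadjusted p under 0.05, median 0.16), with Csf1r, the macrophage growth factor receptor, at 0.37 ± 0.13 and the macrophage scavenger receptor Cd163 at 0.24 ± 0.11 (adjusted p = 1 for both).

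The T and NK cell list had 0 of 3 clusters called by limma (1 with unadjusted p under 0.05, median 0.28) and 0 of 5 gene-level genes (3 with unadjusted p under 0.05, median 0.04). Cd3g, a T cell receptor subunit, was at 0.69 ± 0.19 in the gene-level table (adjusted p = 0.676), and S1pr4, a lymphoid receptor, at 0.42 ± 0.15 on the clusters (adjusted p = 0.204). The B and plasma cell list had 0 of 8 gene-level genes called by limma (0 with unadjusted p under 0.05), and its differences ran from -0.07 to 0.40 with a median of 0.13.

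Goblet cell genes were at negative differences in 6 of 6 measured clusters, with a median of -0.35, and 0 of 6 were called by limma (5 with unadjusted p under 0.05). Of all clusters with 1 symbol, 56.3% were at positive differences. The 2 gene-level members measured were too few to be described. Retnlb, a goblet cell product that is not among the 6 clusters, went the other way and rose by 3.57 ± 0.26 in the gene-level table. Foxa3, a transcription factor of secretory cells, was at 7.22, 7.44, 7.43 and 7.27 log2 units in CONV colons, against 7.62, 7.98, 7.51 and 7.69 in TadA mutant colons. The groups did not overlap, and the difference was -0.36 ± 0.10 (adjusted p = 0.101). Rep15, a trafficking gene of goblet cells, was at -0.48 ± 0.14 and Creb3l1, a transcription factor of secretory cargo, at -0.36 ± 0.12 (adjusted p = 0.123 and 0.183). Zg16 was at 12.66, 12.45, 12.68 and 12.52 log2 units in CONV colons, against 12.71, 12.79, 12.84 and 12.89 in TadA mutant colons, without overlap.

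The glycan-building genes B4galnt2 and St8sia5 rose. B4galnt2, a transferase of N-acetylgalactosamine, was at 9.74, 9.30, 8.42 and 8.19 log2 units in CONV colons, against 7.67, 7.14, 7.40 and 7.61 in TadA mutant colons. CONV replicates 3 and 4 lay 0.52 log2 units or more above the highest TadA mutant array, and the rise was 1.46 ± 0.29 on the clusters (2.75-fold, adjusted p = 0.0210), a call lost in 6 of 26 alternative fits, among them those without TadA mutant replicate 2 or 3 or CONV replicate 2. The gene-level value differed by 1.43 ± 0.28 and was not called (adjusted p = 0.126). St8sia5, a sialyltransferase of gangliosides that is in no list, was at 5.99, 6.49, 6.45 and 6.75 log2 units in CONV colons, against 4.98, 4.63, 4.69 and 4.62 in TadA mutant colons and rose by 1.69 ± 0.13 (3.23-fold, adjusted p = 8.41e-06), without overlap. B4galnt2 was the 1 of 7 list clusters called (median -0.06), and 0 of 3 gene-level members were called by limma (2 with unadjusted p under 0.05, median 0.01). St6galnac1, which caps mucin glycans with sialic acid, was at -0.67 ± 0.18, the fucosyltransferase gene Fut4 at -0.41 ± 0.14 and the sulfotransferase gene Gal3st2 at -0.34 ± 0.12 (adjusted p = 0.101, 0.205 and 1).

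The epithelial barrier and its stress genes gave single calls. Cldn23, a claudin of the tight junction of the colonic surface, was at 8.05, 8.14, 7.84 and 8.19 log2 units in CONV colons, against 6.92, 7.48, 6.75 and 7.32 in TadA mutant colons. It rose by 0.94 ± 0.16 (adjusted p = 0.00832) and was the 1 of 7 junction clusters called (median 0.27), with Cldn3 at 0.36 ± 0.11 (adjusted p = 0.155). Casp14, a protease of cornifying epidermis, was at 6.23, 5.67, 5.47 and 5.75 log2 units in CONV colons, against 6.92, 6.13, 7.44 and 7.0 in TadA mutant colons. CONV replicate 1 lay above TadA mutant replicate 2, so that the groups overlapped, and the gene fell by 1.09 ± 0.22 (adjusted p = 0.0248), a call lost in 9 of 26 alternative fits. With Sprr1a it made 2 of 4 called clusters of the barrier stress list (median 0.31). In the gene-level table, 0 of 4 were called by limma (3 with unadjusted p under 0.05, median -0.29), with Ripk3, a kinase of necroptosis, at 0.72 ± 0.22 and the gasdermin genes Gsdmc2 at -0.63 ± 0.15 and Gsdmc at -0.30 ± 0.10 (adjusted p = 0.838, 0.355 and 1).

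Ceacam10, a secreted member of the carcinoembryonic antigen family, was at 9.60, 8.73, 9.45 and 8.55 log2 units in CONV colons, against 6.55, 6.87, 7.51 and 7.51 in TadA mutant colons and rose by 1.97 ± 0.29 (3.93-fold, adjusted p = 0.00246), without overlap. Adgrf1, an adhesion receptor coupled to G proteins, was at 7.44, 8.57, 7.13 and 6.31 log2 units in CONV colons, against 4.67, 5.15, 4.72 and 5.0 in TadA mutant colons. It rose by 2.48 ± 0.31 (5.57-fold, adjusted p = 0.00170), although the 4 CONV columns spanned 2.26 log2 units. The Ly6 family genes Ly6m and Ly6a, which encode surface proteins anchored in the membrane by a lipid, rose by 1.2 ± 0.20 and 0.99 ± 0.14 (adjusted p = 0.00781 and 0.00219), and were named after their values were seen. Further called clusters named in this way were Id1, an inhibitor of differentiation factors, at 0.93 ± 0.13, Fgfbp1, a carrier of fibroblast growth factors, at 0.80 ± 0.17, the endosomal adaptor gene Appl1 at 0.76 ± 0.12, Ccdc116 at 0.82 ± 0.09, Misp, a spindle and actin protein gene, at 0.49 ± 0.10, and Rhof, a small GTPase gene, at 0.43 ± 0.10. The call was lost in 16 of 25 alternative fits for Rhof, in 10 of 26 for Fgfbp1 and in 8 of 26 for Misp. The cluster with the symbol Zc2hc1a was at 0.73 ± 0.15, and its number directly follows that of Fgfbp1, which lies on another chromosome, so that its symbol is uncertain.

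Gda, Ak4 and Ddah1, enzyme genes in no list, rose. Gda, guanine deaminase, was at 10.26, 10.49, 10.24 and 9.69 log2 units in CONV colons, against 8.04, 8.12, 8.23 and 8.25 in TadA mutant colons. It rose by 2.01 ± 0.19 (4.02-fold, adjusted p = 6.41e-05), without overlap. Ak4, a mitochondrial adenylate kinase, rose by 2.18 ± 0.23 in the gene-level table (adjusted p = 0.000253) and by 1.52 ± 0.26 on the clusters (adjusted p = 0.00774). Ddah1, which breaks down a natural inhibitor of nitric oxide synthases, was at 8.72, 9.81, 8.82 and 8.66 log2 units in CONV colons, against 7.21, 7.44, 7.49 and 7.33 in TadA mutant colons and rose by 1.63 ± 0.24 (adjusted p = 0.00805). Its highest CONV column stood 0.99 log2 units above the next. Dhrs9, a retinol and steroid dehydrogenase, rose by 1.59 ± 0.25 (adjusted p = 0.00472) and was named after its values were seen. Thpo, which encodes thrombopoietin, rose by 1.01 ± 0.13 in the gene-level table (adjusted p = 0.00254). Further gene-level calls named after their values were seen were Gna14, a G protein subunit gene, at 0.94 ± 0.11, Mov10, an RNA helicase gene, at 0.76 ± 0.13, and 4 predicted or clone-named genes, all higher: Gm16233 at 2.21 ± 0.20, 2310034C09Rik at 1.30 ± 0.13, Gm5519 at 0.82 ± 0.12 and E030025P04Rik at 0.67 ± 0.11. Mov10 and E030025P04Rik each lost the call in 8 of 13 alternatives.

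Falls of metabolic genes were smaller. Suox, sulfite oxidase, was at 6.62, 6.88, 6.77 and 6.30 log2 units in CONV colons, against 7.49, 7.41, 7.53 and 7.73 in TadA mutant colons. It fell by 0.90 ± 0.14 (adjusted p = 0.00408), without overlap. Eci3, an enzyme of unsaturated fatty acid breakdown, was at 5.83, 5.33, 5.30 and 6.44 log2 units in CONV colons, against 6.72, 6.46, 6.93 and 6.99 in TadA mutant colons. The fall of 1.05 ± 0.24 (adjusted p = 0.0494) was lost in 19 of 26 alternative fits, and CONV replicate 4 was 0.02 log2 units below the lowest TadA mutant array. The lipid and ketone list had 0 of 4 clusters called by limma (0 with unadjusted p under 0.05, median -0.03) and 0 of 8 gene-level genes (2 with unadjusted p under 0.05, median 0.13), with Cpt1a, the gate of mitochondrial fatty acid oxidation, at 0.43 ± 0.12 and Pdk4, which diverts glucose carbon from oxidation, at 0.38 ± 0.14 (adjusted p = 0.584 and 1). The xenobiotic list had 0 of 10 clusters called by limma (3 with unadjusted p under 0.05, median 0.17) and 0 of 10 gene-level genes (4 with unadjusted p under 0.05, median 0.21). Its carboxylesterase genes Ces1f and Ces2e were at 1.15 ± 0.31 and 0.77 ± 0.18 on the clusters (adjusted p = 0.0956 and 0.0555), and Ces2e at 0.71 ± 0.18 in the gene-level table (0.489). The cytochrome gene Cyp4f14 was at 0.40 ± 0.18 on the clusters and 0.47 ± 0.20 in the gene-level table, the sulfotransferase gene Sult1c2 at -0.61 ± 0.21 and the retinal dehydrogenase gene Aldh1a1 at -0.35 ± 0.15 (adjusted p = 0.323, 1, 1 and 1).

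Cell division genes were not called. Of the proliferation list, 0 of 6 clusters were called by limma (0 with unadjusted p under 0.05, median 0.32), and 0 of 19 gene-level genes (6 with unadjusted p under 0.05, median 0.14), with 5 of 6 and 14 of 19 at positive differences. The gene-level share at that limit was near the 29.1% of the whole table. Mybl2, a transcription factor of the cell cycle, was at 0.52 ± 0.15, Cenpa, the centromeric histone, at 0.45 ± 0.15, the mitotic kinase Aurka at 0.36 ± 0.14 and the checkpoint gene Bub3 at -0.38 ± 0.12 (adjusted p = 0.722, 1, 1 and 1). Plk3, a stress-responsive kinase of the polo-like family, which is not in the list, was at 7.30, 6.91, 6.90 and 6.89 log2 units in CONV colons, against 8.12, 8.18, 8.34 and 8.41 in TadA mutant colons. It fell by 1.26 ± 0.14 (2.40-fold lower, adjusted p = 0.000450), without overlap. Of the stem cell and growth factor list 0 of 3 gene-level genes were called by limma (2 with unadjusted p under 0.05, median 0.14), with the growth factor gene Igf2 at 0.48 ± 0.13 and Rspo3, a stromal enhancer of Wnt signals, at -0.41 ± 0.13 (adjusted p = 0.589 and 1). Fzd7, a Wnt receptor gene named after its values were seen, fell by 0.42 ± 0.09 (adjusted p = 0.0364), a call lost in 12 of 26 alternative fits. Mki67, Lgr5, Muc2, Nos2, Reg3b and Reg3g were not analysed here.

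Muscle genes were at negative differences throughout: 4 of 4 clusters (median -0.48) and 9 of 9 gene-level genes (median -0.64). Of these, 2 of 4 and 2 of 9 were called, all lower. Called lower were 0.862% of all clusters with 1 symbol and 0.279% of the gene-level table. Cnn1, the calponin of contractile cells, was at 10.04, 9.87, 10.18 and 10.08 log2 units in CONV colons, against 11.08, 10.67, 11.01 and 11.19 in TadA mutant colons. It fell by 0.94 ± 0.14 (adjusted p = 0.00278), with no overlap, and was at -0.50 with smooth muscle level, which Cnn1 itself enters, as covariate. Tpm2, a tropomyosin, fell by 0.55 ± 0.12 (adjusted p = 0.0311), a call lost in 10 of 26 alternative fits, and Lmod1, an actin nucleator, was at -0.41 ± 0.15 (adjusted p = 0.201). In the gene-level table Des, the muscle intermediate filament desmin, was at 7.15, 7.04, 7.01 and 6.33 log2 units in CONV colons, against 8.35, 7.86, 8.45 and 8.53 in TadA mutant colons. It fell by 1.42 ± 0.20 (2.67-fold lower, adjusted p = 0.00547). Synm, a filament protein that joins desmin, was at 5.82, 6.18, 6.54 and 6.45 log2 units in CONV colons, against 7.77, 7.44, 8.31 and 8.14 in TadA mutant colons and fell by 1.67 ± 0.26 (adjusted p = 0.0156), and 7 of 13 alternatives lost that call. Mylk, the myosin light chain kinase gene, at -0.75 ± 0.14 and Myl9, a myosin light chain gene, at -0.76 ± 0.19 were not called (adjusted p = 0.0955 and 0.489).

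Fibroblast and matrix genes lay on the same side, 5 of 5 with a median of -0.46, and 0 of 5 were called by limma (3 with unadjusted p under 0.05). The collagen gene Col14a1 was at 5.95, 6.14, 6.02 and 6.11 log2 units in CONV colons, against 6.56, 6.60, 6.51 and 6.74 in TadA mutant colons, without overlap, and its difference was -0.55 ± 0.10 (adjusted p = 0.0558). Fn1, fibronectin, was at -0.46 ± 0.14 and Lum, a matrix proteoglycan, at -0.49 ± 0.15 (adjusted p = 0.903 and 0.916). All 12 of the largest named falls on clusters lost their call with smooth muscle level as covariate, with sizes between 0.34 and 0.87 log2 units, and 7 of the 12 largest rises kept theirs, with sizes of all 12 between 1.37 and 2.53. Without the arrays with Cpa1 above 9, 2 of the 12 rises (Slc13a2 and Cd14) and 0 of the 12 falls kept the call, at sizes of 1.04 to 2.60 and 0.52 to 1.31. With the CONV and TadA mutant arrays alone 9 of the 12 rises and 1 of the 12 falls kept it.

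The other falls among the 12 were of genes in no list. Pcp4l1, a small calmodulin-binding protein gene, fell by 0.67 ± 0.10 (adjusted p = 0.00444), Tppp, a promoter of tubulin polymerisation, by 0.64 ± 0.12 (0.0163), Setd7, a lysine methyltransferase, by 0.61 ± 0.14 (0.0478), Mia2, a protein of cargo export from the endoplasmic reticulum, by 0.60 ± 0.12 (0.0187), and Sval1, named for its likeness to a seminal vesicle antigen, by 0.56 ± 0.11 (0.0220). The call of Setd7 was lost in 19 of 26 alternative fits. Ahnak2, a large scaffold protein gene of the gene-level table, fell by 0.68 ± 0.11 (adjusted p = 0.0298), and 8 of 13 alternatives lost that call. Called falls outside the 12, named after their values were seen, were Serinc5, a membrane protein gene, at -0.52 ± 0.10, and the zinc finger genes Zfp790 at -0.43 ± 0.10 and Zbtb44 at -0.39 ± 0.08. Their calls were lost in 7, 19 and 15 of 26 alternative fits.

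The remaining lists had no called member by limma. Enteroendocrine genes were at a median of 0.06 on 4 of 6 positive clusters and -0.003 on 2 of 4 positive gene-level genes (0 and 1 with unadjusted p under 0.05), with the colonic hormone gene Insl5 at -0.33 ± 0.14 (adjusted p = 1). Immediate early and heat shock genes were at 0.17 on 5 of 5 positive clusters and -0.17 on 1 of 3 positive gene-level genes (2 and 1 with unadjusted p under 0.05). Jun, a subunit of AP-1, was at 8.22, 8.40, 8.31 and 8.41 log2 units in CONV colons, against 7.61, 8.14, 7.80 and 7.85 in TadA mutant colons, and its difference of 0.48 ± 0.11 missed the threshold without overlap between the groups (adjusted p = 0.0508). The stress gene Ier3 was at 0.42 ± 0.19 and the chaperone gene Hsp90aa1 at -0.32 ± 0.14 (adjusted p = 0.312 and 1). Clock genes had a median of -0.22 (1 of 3 with unadjusted p under 0.05). Endothelial, small intestinal and pancreatic clusters had medians of -0.01, 0.14 and 0.71 (0, 0 and 1 with unadjusted p under 0.05, the last being Zg16, which goblet cells make too), and the pancreatic differences ran from -0.23 to 0.99 with SE of up to 2.81.

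**Figure D4:**
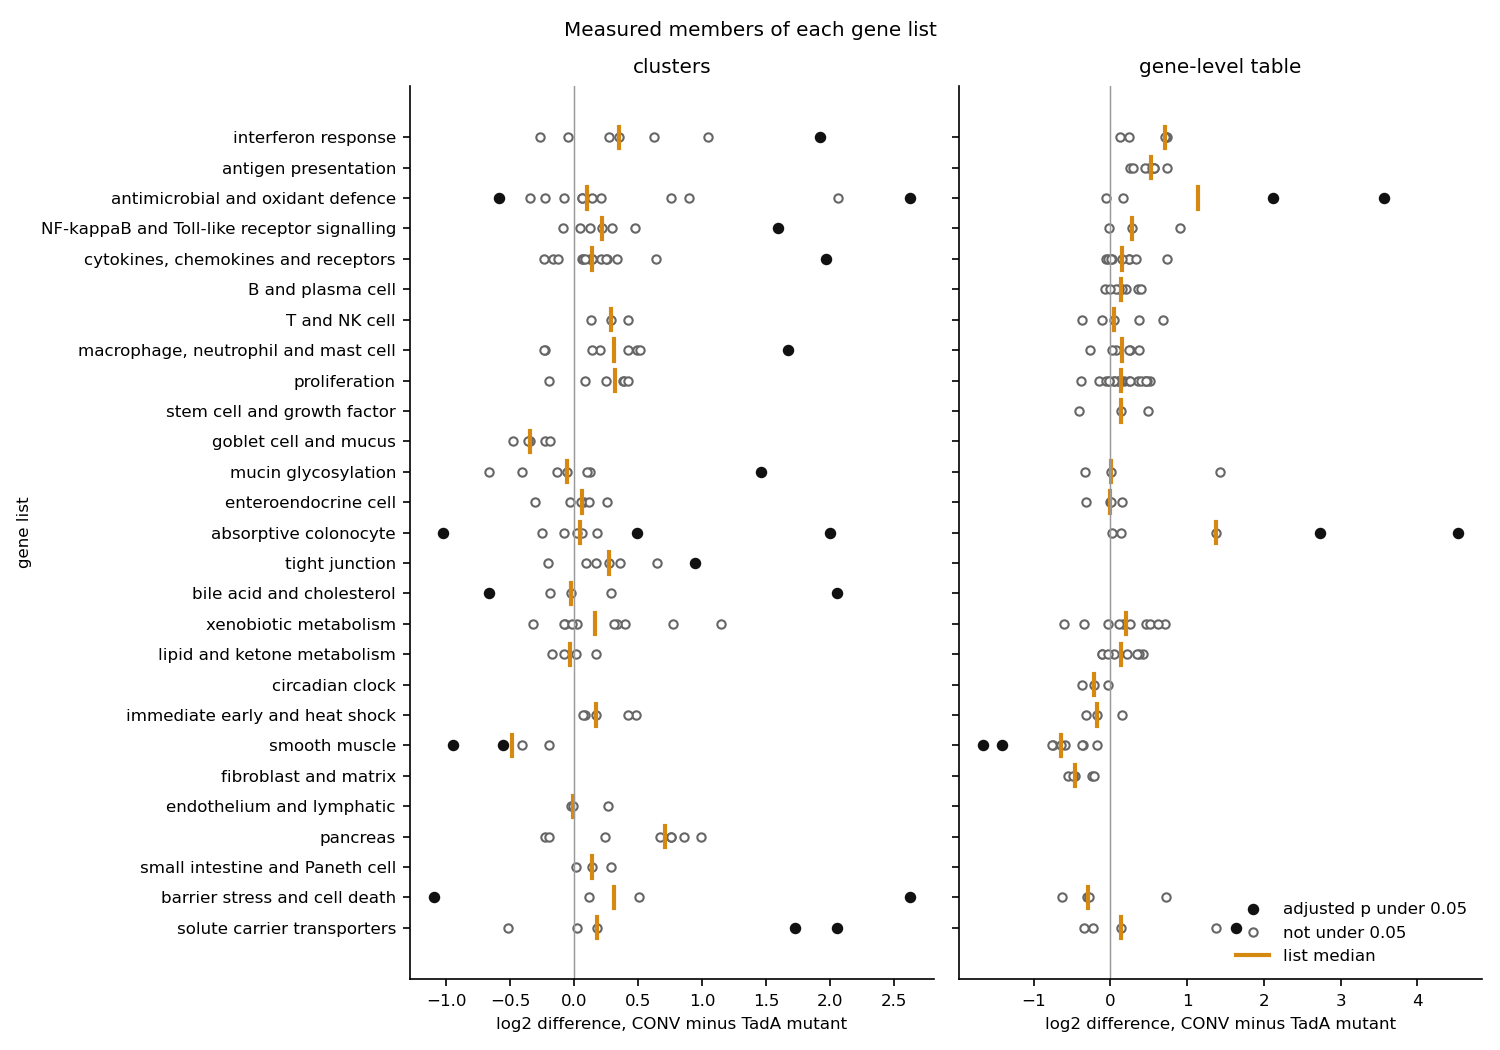
Log2 difference, CONV minus TadA mutant, of every measured member of each described gene list, on clusters (left) and in the gene-level table (right). Filled points have an adjusted p under 0.05, open points do not, and bars mark list medians, which are -0.48 and -0.64 for smooth muscle and -0.35 for goblet cell clusters.

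Set beside the other groups as levels without a test, rises of CONV took more than one form. Clca4b averaged 6.37 ± 0.19 log2 units in UCC2003 and 6.55 ± 0.15 in GF colons (SD, n = 4 each), Tnf 5.16 ± 0.36 and 5.20 ± 0.11, Slc51b 5.90 ± 0.30 and 5.94 ± 0.14, and Duox2 6.67 ± 0.13 and 6.58 ± 0.24, all near their TadA mutant levels of 6.20, 5.09, 5.83 and 7.07. Retnlb averaged 10.61 ± 0.36 in UCC2003 and 6.91 ± 0.50 in GF colons, so that the UCC2003 level was nearer to the 11.27 of CONV than to the 7.69 of TadA mutant. B4galnt2 averaged 5.15 ± 0.35 in UCC2003 and 7.37 ± 0.20 in GF colons, with UCC2003 below every other group. Fxyd4 averaged 10.62 ± 0.56 in UCC2003 and 11.73 ± 0.19 in GF colons, and Cnn1 10.98 ± 0.06 and 10.53 ± 0.29.

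**Figure D5:**
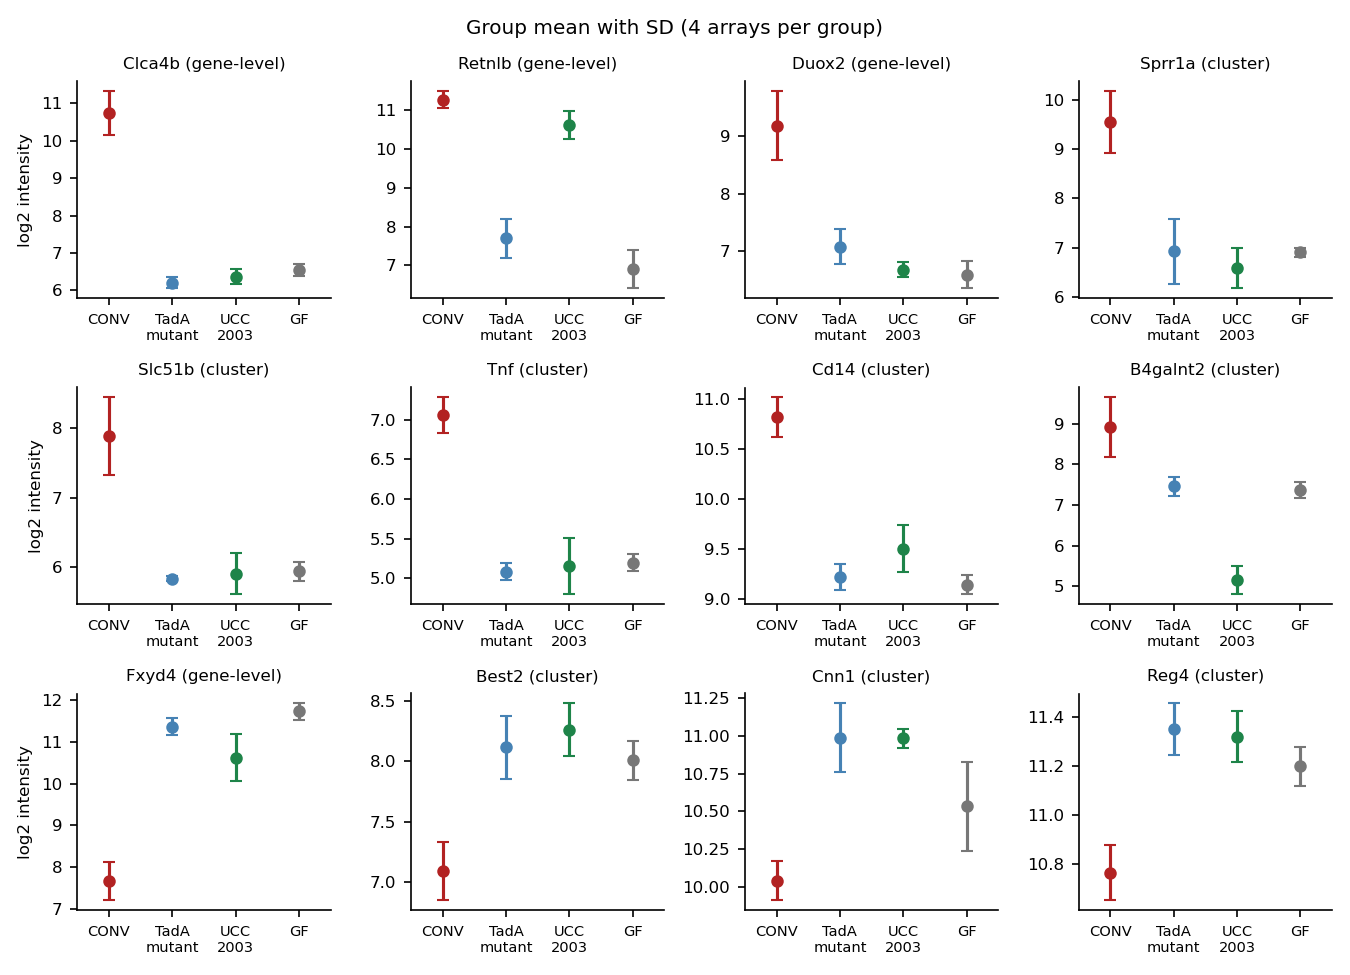
Mean log2 intensity with SD over 4 arrays in CONV, TadA mutant, UCC2003 and GF colons for 12 genes, from clusters or the gene-level table as marked, each panel on its own axis that does not start at 0. CONV stands apart in most panels, while Retnlb is high in CONV and UCC2003 and B4galnt2 is lowest in UCC2003.

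Of the 327 called clusters, 277 carry no symbol in the tables used here and 1 carries several. They include the largest changes among the clusters. Cluster 6989010 was at 10.94, 11.68, 11.25 and 9.72 log2 units in CONV colons, against 5.94, 5.89, 5.78 and 6.02 in TadA mutant colons, a rise of 4.99 ± 0.29. Cluster 6831762 rose by 4.49 ± 0.34. Cluster 6956852 was at 7.24, 7.31, 6.67 and 7.0 in CONV colons, against 10.75, 10.42, 10.46 and 10.28 in TadA mutant colons, a fall of 3.42 ± 0.22, and cluster 6964011 fell by 2.34 ± 0.32 (SE). These 4 were picked as the extremes, and their groups did not overlap.

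The authors' deposited table gives its own comparison of the same 2 groups over 16135 features. It holds 237 features with an adjusted p under 0.05 (1.47%), 161 higher in CONV (0.998%) and 76 lower (0.471%). Limma called 317 of the same features, and 161 were called by both, which is 50.8% of the limma calls and 67.9% of those of the authors' deposited table. Of the 49 called clusters with 1 symbol, 32 had an adjusted p under 0.05 in the authors' deposited table. Lrg1 there had an adjusted p of 0.168, Cldn23 of 0.0602 and B4galnt2 of 0.0332, while Tff3, not called by limma, had 0.0248 in the authors' deposited table. Set against the 4 arrays, the CONV means of the authors' deposited table were off by a median of 0.0744 log2 units and at most 1.52, and the TadA mutant means by 0.0245 and at most 0.532. Tff3, for example, had a CONV mean of 12.07 there and of 12.18 over the 4 arrays, of which replicate 4 was at 12.48. Which arrays entered the authors' comparison was not tested, so the calls set side by side here may rest on different CONV arrays.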

How the data were processed

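Per the submitters' processing notes, the authors used Affymetrix Expression Console 1.1, RMA, Partek and mm9, and the deposited array values are log2 intensities. The design text names Subio Platform. The authors' deposited table gives group means as log2 values, signed fold changes (a score, negative where lower) and p-values from an analysis of variance, per the file headers. Its fold had the sign of its means in 15481 of 16135 features, and where it did not the adjusted p was 0.712 or more. All p-values deposited with the gene-level table were between 6.46e-06 and 0.0500.

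Here a model with 1 coefficient per group was fitted with limma 3.58.1 in R 4.3.3 to the 16 arrays as deposited, without a filter (prior degrees of freedom 2.22). CONV minus TadA mutant was tested two-sided with Benjamini-Hochberg adjustment over 23332 clusters, and gene-level p-values were adjusted over 35860 tests. Alternatives were 26 fits for clusters and 13 for the gene-level table, the latter without any on smooth muscle or pancreatic level. Symbols came from the deposited comparison table. Of them 1903 were in the RefSeq gene table, 111 under a newer symbol, and of the gene-level symbols 1595 and 95.

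Members and 31 gene lists were chosen with earlier results of these data known. Of the lists, 22 had at least 3 measured clusters and 21 as many gene-level genes, and the others are not described. The text names, leaving out predicted and clone-named genes, the 12 largest rises and falls among called clusters with 1 symbol, up to 10 each way in the gene-level table, 9 fixed genes, and up to 4 members per list by smallest p with an unadjusted p under 0.05, a limit set after the values were seen. One gene that this rule names is not reported here. Named clusters with 1 symbol were used, and 18 of them share a symbol with another. Promoters came from RefSeq on GRCm38.p6.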

Additional observations from a re-analysis of the deposited data

Results flagged for a closer look

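One array stood far from the other 3 of its group in 16 of the 276 groups of 4 values examined (the named clusters and genes in CONV and TadA mutant, by the gap to the nearest value over the range), and chance gives about 1 in 20. Values are log2 units. Among CONV values, Ddah1 had a highest value of 9.81, Gm16233 10.71, Ripk2 6.96, Hsp90aa1 9.68, Gsdmc2 10.53 and Plk3 7.30 in the gene-level table, and Tppp 7.31 on the clusters. The CONV value of Cpt1a that stood apart was a lowest one, 8.54 in the gene-level table. Among TadA mutant values, the lowest ones stood apart in Il4ra at 6.05, Appl1 at 7.46 and Serinc5 at 7.70 on the clusters, and in Igf2 at 5.40 and Ahnak2 at 7.47 in the gene-level table. The highest ones stood apart in Cyp4f14 at 6.53 on the clusters, and in Mov10 at 8.02 and Csf1r at 6.88 in the gene-level table.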

How the results depend on the processing

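The count of 327 called clusters (197 higher, 130 lower) was 83 with the CONV and TadA mutant arrays alone, 495 among clusters with a mean of at least 6 log2 units, 29 without the arrays in which Cpa1 exceeded 9, and 34 once smooth muscle level entered as a covariate. Those fits kept 78, 271, 22 and 33 of the 327. Fewer arrays or clusters enter the first 3, and the cause of the fourth was not tested. Leaving out 1 array gave 163 to 392 calls. Other settings gave 321 to 437, and the fit with the replicate number as a block gave 220. Same-numbered CONV and TadA mutant arrays correlated in their deviations at 0.052, 0.064, 0.057 and -0.036. Arrays with unlike numbers ran from -0.185 to 0.154. So few weak values cannot tell whether the replicate numbers stand for a pairing. The gene-level count of 23 was 9 with the 2 groups alone, 202 adjusted over the table alone (11.3%), and 17 to 34 when 1 column was left out. The share of higher calls, 60.2%, was 88.2% with the smooth muscle covariate, 65.0% with median centring and 62.9% with quantile normalisation, which moved the median of all clusters to 0.02, and 52.3% among clusters with a mean of at least 6 and 53.8% without GF replicate 4. With the smooth muscle covariate Sprr3 was at -0.061 and Lmod1, which itself enters that level, at 0.15. Both were against their direction, and neither was called in the main analysis or there. Of the named calls, Slc13a2 and Cd14 on the clusters and Clca4b, Retnlb, Clca4a, Gda, Slc13a2, Gm16233, 2310034C09Rik, Plk3 and Fxyd4 in the gene-level table passed in every alternative of their own table. The gene-level alternatives held no fit with smooth muscle or pancreatic level as covariate and none without the arrays with Cpa1 above 9. How the gene-level calls depend on these was not tested. No called cluster with 1 symbol (0 of 49) changed direction.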
